A study of Mus musculus with 18 samples.

Results

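NMDA receptors are glutamate-gated channels of the excitatory synapse. The 7 mouse genes that encode their subunits (Grin1, Grin2a, Grin2b, Grin2c, Grin2d, Grin3a and Grin3b) were followed in cells sorted as spinal motor neurons (MNs) across 2 stages, 3 regions of the cord and the loss of the transcription factor Hoxc8. All 7 were found among the 27179 genes of the stage and regional tables, by their Entrez identifiers. In the mutant table, which lists 35729 RefSeq transcripts, the transcript with the highest base mean stood for each gene.

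RNA-Seq had been done on 18 samples of sorted cells. At postnatal day 8 (p8) there were 3 brachial, 3 thoracic and 3 lumbar samples, sorted by the tdTomato that the Ai9 reporter makes wherever Chat-IRES-Cre is active, so the sort takes any cell whose Chat locus has been active. The paper's staining at p8 found tdTomato together with ChAT protein in MNs, in a small fraction of other cells, and not with the astrocyte protein GFAP. In the RNA of the p8 brachial samples, oligodendrocyte markers took 43.6% of all summed levels and cholinergic MN markers 0.00114%. Mbp alone held 13236900 of the 15787100 normalised counts of the oligodendrocyte sum, and these sums are not divided by gene length. For p8, MNs is therefore the name the labels give the samples, and levels are those of the whole sample. The same reading applies to the e12.5 control samples, where inhibitory interneuron markers took 0.136% and cholinergic MN markers 0.0344%. At embryonic stage e12.5 (written e12 below) there were 3 samples of brachial MNs from Olig2Cre::Hoxc8 fl/fl embryos, termed Hoxc8 MNΔearly, and 6 control brachial samples that the labels call wildtype, all sorted by the Mnx1-GFP transgene. Olig2Cre acts in progenitors, before MNs are born, and each sample was pooled from several spinal cords. The methods give Hoxc8 fl/fl embryos as the controls of the mutant, 3 replicates a group and different segments for the 2 embryonic experiments, and the labels do not say which control samples belong to which. Genes with a single read show 6 e12 samples in the stage comparison and 3 controls in the mutant comparison. The e12 group of the stage comparison therefore appears to hold controls of both experiments, which differ in segments and, by the methods, in genotype. The p8 brachial samples came from the segments of the stage experiment. Stage and sorting reporter go together in the stage comparison, so they cannot be told apart, and segments and genotype are not held equal in it.

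An NMDA receptor is a tetramer with an obligatory GluN1 subunit, encoded by Grin1, which binds the co-agonist glycine or D-serine. GluN2 subunits, encoded by the Grin2 genes, bind glutamate and set the channel's deactivation time and its block by magnesium. GluN3 subunits, encoded by the Grin3 genes, bind glycine and lower calcium permeability. In the rodent forebrain, Grin2b and Grin2d prevail before birth and Grin2a rises after it, while Grin2c rises after birth mainly in the cerebellum.

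The genes lie on 7 chromosomes of GRCm38. Grin1 is at chr2:25291181-25319187 on the minus strand, Grin2a at chr16:9567898-9995560, Grin2b at chr6:135713233-136173511, Grin2c at chr11:115249169-115267243, Grin2d at chr7:45831883-45878378 and Grin3a at chr4:49661611-49845744, all on the minus strand, and Grin3b is at chr10:79970715-79977190 on the plus strand. Exons of Grin1, Grin2b, Grin2c and Grin2d overlap non-coding genes of the other strand, and those of Grin3b overlap Tmem259, a protein-coding gene of the other strand. The strand setting of the counting is not given in the sources used here, so reads of such overlaps cannot be assigned to 1 gene. Tmem259 stood at 384 normalised counts at p8 and 2570 at e12, and its log2 fold change of e12 over p8 was 2.74.

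Because Grin1, Grin2d and Grin3b differed between the stages by similar amounts, the 250 bases before the RefSeq start of each (GRCm38.p6) are shown, with those of Grin2c, which differed more. Capitals mark CpG dinucleotides. RefSeq promoters of the other 3 members were not used here.
Grin1 (chr2:25319188-25319437, minus strand): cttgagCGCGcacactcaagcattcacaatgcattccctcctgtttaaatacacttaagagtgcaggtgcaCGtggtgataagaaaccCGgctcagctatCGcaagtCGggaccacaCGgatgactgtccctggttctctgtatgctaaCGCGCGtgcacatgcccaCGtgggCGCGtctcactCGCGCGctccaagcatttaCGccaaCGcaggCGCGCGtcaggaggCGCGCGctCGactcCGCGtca
Grin2d (chr7:45866682-45866931, minus strand): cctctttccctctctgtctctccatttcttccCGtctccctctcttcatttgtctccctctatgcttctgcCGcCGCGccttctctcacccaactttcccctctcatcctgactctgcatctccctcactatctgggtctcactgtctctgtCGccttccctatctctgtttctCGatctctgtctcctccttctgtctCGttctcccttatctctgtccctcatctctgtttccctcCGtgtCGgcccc
Grin3b (chr10:79970474-79970723, plus strand): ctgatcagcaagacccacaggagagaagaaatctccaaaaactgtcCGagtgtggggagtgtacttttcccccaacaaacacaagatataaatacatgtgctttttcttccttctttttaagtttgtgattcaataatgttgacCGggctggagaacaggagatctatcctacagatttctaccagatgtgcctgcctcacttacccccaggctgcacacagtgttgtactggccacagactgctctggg
Grin2c (chr11:115267244-115267493, minus strand): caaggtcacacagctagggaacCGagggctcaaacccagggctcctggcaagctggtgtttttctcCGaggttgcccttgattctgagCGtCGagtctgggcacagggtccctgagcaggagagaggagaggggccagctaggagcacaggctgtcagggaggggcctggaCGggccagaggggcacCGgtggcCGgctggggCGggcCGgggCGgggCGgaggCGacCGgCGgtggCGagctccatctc
Grin1, Grin2d and Grin3b did not share a CpG content. Grin1 holds 27 CpGs, a number reached by 8.56% of the 32851 mouse promoters of this length. Grin2d holds 9 and Grin3b 2, against a median of 6 over all promoters. The RefSeq start used for Grin2d lies inside the gene span given above, and the bases before the outer start of that span were not examined. The GC box, GGGCGG or CCGCCC on the strand shown, was found only in Grin2c of these 4, with 3 matches, and 32.7% of all promoters hold at least 1. A match of letters is a description of the sequence and shows no binding.

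In the comparison of p8 with e12 brachial MNs, 5 of the 6 members with a p-value were lower at p8 and none was higher, on the authors' scaling of the libraries. Relative to the genes of mature neurons, 2 of these 5 were still called lower and Grin3a was called higher, as given further on. That scale called 13317 of the 18787 genes tested higher at p8 and 726 higher at e12. On the authors' scaling, Grin2b, Grin2c, Grin1, Grin3b and Grin2d were all called at an adjusted p under 0.05 (Benjamini-Hochberg over all genes with a p-value). Of all 18787 genes tested, 23% were called higher at p8 and 24.8% higher at e12 on the authors' scaling. Grin3a did not pass the test, and Grin2a has no p-value in the deposited table although reads were present, as DESeq2 leaves it out where 1 sample's count is extreme. The median log2 fold change of e12 over p8 was 3.35 over the 7 members and -0.04 over all genes tested. In bulk RNA, fewer cells of a type and less RNA per cell cannot be told apart.

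The deposited table gives a base mean and a fold change for each gene and no value per sample, so the level at each stage was solved from the 2 of them. Grin1, the obligatory subunit, stood at 35.5 normalised counts at p8 and 401 at e12. Its log2 fold change of e12 over p8 was 3.50 (95% interval 2.78 to 4.21, adjusted p = 2.05e-20). The interval leaves out any difference of less than 2.78 on this scale, and the p8 samples still held reads of the gene.

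Among the glutamate-binding subunits, Grin2b, the gene of the GluN2B subunit, stood at 1.33 normalised counts at p8 and 745 at e12. This log2 fold change of 9.13 (7.39 to 10.87, adjusted p = 1.97e-23) was exceeded by 0.467% of genes with reads. Grin2c, known in the adult rodent above all from the cerebellum, stood at 0.570 normalised counts at p8 and 117 at e12, with a log2 fold change of 7.68 (5.27 to 10.09, adjusted p = 2.95e-09). In the 2 p8 samples whose single reads can be seen in the table, 1 read adds 0.230 or 0.346 to the p8 mean, so 3 such reads would exceed the level of Grin2c. Among 384 genes with a base mean close to that of Grin2c, the lowest solved p8 level was 0.497 and the highest log2 fold change 7.96. The p8 level of Grin2c is thus near the lowest that the comparison gives at its base mean. The fitted folds of these 2 genes, 562 and 205, depend on the model's handling of such counts and are no bounds.

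Grin2d, whose subunit gives slow, weakly magnesium-blocked channels, stood at 51.6 normalised counts at p8 and 486 at e12. Its log2 fold change was 3.24 (2.35 to 4.12, adjusted p = 6.27e-12). Grin2a, the typical subunit gene of mature forebrain synapses, stood at 16.5 at p8 and 23.3 at e12, with a log2 fold change of 0.50 and an interval from -1.63 to 2.62. That interval spans 0 and is the only one among the 4 Grin2 genes to do so.

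The glycine-binding GluN3 genes differed from each other. Grin3a stood at 140 normalised counts at p8 and 185 at e12, with a log2 fold change of 0.41 (-0.68 to 1.50, adjusted p = 0.619). Its interval ends at 1.50, below the lower end of the interval of Grin1, and puts the p8 level at 76.9 or more. Grin3b, a subunit gene that in rodents is known mainly from motor neurons, stood at 15.6 at p8 and 159 at e12, with a log2 fold change of 3.35 (2.12 to 4.58, adjusted p = 5.27e-07). Grin3b shares exonic sequence with Tmem259, which was also lower at p8 (adjusted p = 1.90e-21), and what part reads of that gene had in its value was not tested.

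**Figure D1:**
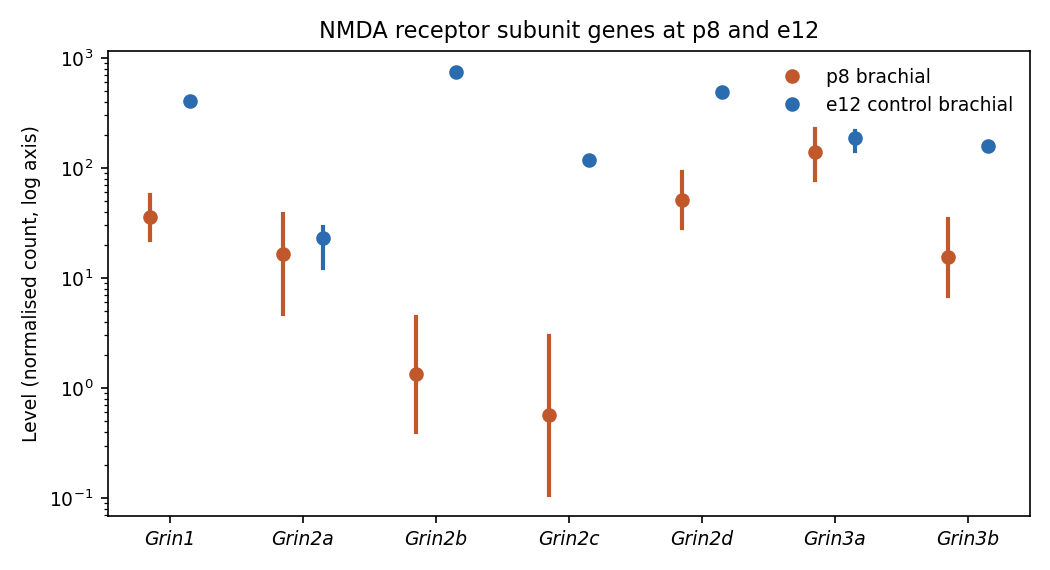
Level of each NMDA receptor subunit gene in p8 brachial MNs (orange) and e12 control brachial MNs (blue), in normalised counts on a log axis. Points were solved from the base mean and fold change, and lines show the levels at the ends of the 95% interval of the fold change. Levels are not divided by gene length, so heights compare stages and not genes: the stages overlap for Grin2a and Grin3a, and Grin2b and Grin2c are farthest apart on this scale, which is the authors' scaling of the libraries.

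The members thus fell into 3 sizes of difference, and the differences between them were compared over all 21 pairs, with 95% intervals made from the deposited standard errors as if the 2 estimates were independent and with no adjustment. In 16 pairs the interval left out 0. On the log2 scale, the fold change of Grin1 minus that of Grin2b was -5.64 (-7.52 to -3.76). The difference of Grin2b minus Grin3a was 8.73 (6.68 to 10.78), and that of Grin1 minus Grin3a was 3.09 (1.79 to 4.40). Grin3a minus Grin3b gave -2.95 (-4.59 to -1.30).

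The 5 pairs with an interval across 0 were those within the sizes. The sizes were read from the same fold changes, so this describes the grouping and is no separate support for it. Grin2a entered its pairs although it has no p-value. Grin1 minus Grin2d was 0.26 (-0.87 to 1.40), Grin1 minus Grin3b was 0.15 (-1.28 to 1.57) and Grin2d minus Grin3b was -0.12 (-1.63 to 1.40). These intervals still allow differences above 1 on the log2 scale. Grin2b minus Grin2c was 1.45 (-1.52 to 4.42) and Grin2a minus Grin3a was 0.09 (-2.29 to 2.48).

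Markers of other cells moved with the stage. The 10 oligodendrocyte markers, such as the myelin protein gene Mbp, took 43.6% of all summed levels at p8 and 0.00935% at e12, and all 10 were called higher at p8, with p8 levels from 886 upward. The 15 markers of mature neurons took 0.228% at p8 and 0.959% at e12, and 13 were called higher at e12 and 1 at p8. The 6 cholinergic MN markers took 0.00114% at p8 and 0.0344% at e12, and Chat, the acetylcholine-making enzyme by which the p8 cells were marked, stood at 37.8 at p8 and 202 at e12 (adjusted p = 0.0836). Inhibitory interneuron markers took 0.000211% at p8 and 0.136% at e12, and excitatory ones 6.86e-05% at p8 and 0.0144% at e12, with median log2 fold changes of e12 over p8 of 10.90 and 6.22. Microglial, astrocyte and endothelial markers took 0.0753%, 0.428% and 0.00812% at p8, against 0.00126%, 0.0440% and 0.00118% at e12, and no marker of any list was at 0 in both stages. S100b alone held 94.4% of the astrocyte sum at p8, and without it, chosen after its value was seen, that sum was 8675 normalised counts at p8 and 6774 at e12. Of the 8 astrocyte markers 5 were called higher at p8, and Slc1a2, Slc1a3 and Aldh1l1 had levels of 514, 447 and 107 at p8 and 5604, 856 and 120 at e12. The 7 NMDA receptor genes summed to 261 normalised counts at p8 and 2118 at e12, which is 0.000721% and 0.0138% of all summed levels. What part the make-up of the samples had in the values of the members was not tested.

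As the neuronal share of the RNA differed between the stages, the fold changes were also expressed relative to the median of the mature neuron list, which was 3.81. The list's fold changes ran from -7.64 for Nefh to 6.35 for Rbfox3. Their median was taken off as a fixed value, so the intervals and p-values in this paragraph leave out its uncertainty. On this scale Grin1 differed by -0.31 (-1.03 to 0.40), Grin2d by -0.57 (-1.45 to 0.31) and Grin3b by -0.46 (-1.69 to 0.78), and none of these 3 was called. Grin2b, at 5.32 (3.59 to 7.06, adjusted p = 4.32e-09), and Grin2c, at 3.87 (1.46 to 6.28, adjusted p = 0.00253), remained lower at p8. Grin3a turned to the other direction, at -3.40 (-4.49 to -2.31, adjusted p = 2.08e-09), which is higher at p8 relative to the neuronal genes. Such a call is common on this scale, where 13317 of the 18787 genes tested were called higher at p8 and 726 higher at e12. The list holds genes that themselves change as neurons mature, such as Nefh, the heavy neurofilament gene, at 42534 normalised counts at p8 and 213 at e12, so its median is a convention and not a measured number of neurons.

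Levels were divided by the length of all annotated exons of a gene to compare the members with each other. Per kb, the 7 genes summed to 28.6 at p8 and 232 at e12. At p8 Grin3a was the highest, with 39.8% of this sum, followed by Grin2d with 27.1%, Grin3b with 16.6% and Grin1 with 12.8%. At e12 the order was Grin2d with 31.4%, Grin3b with 20.8%, Grin1 with 17.8% and Grin2b with 12.9%, and Grin3a held 6.50%. Among the 4 Grin2 genes alone, Grin2d held 87.7% at p8 and 57.2% at e12, Grin2b 0.605% at p8 and 23.5% at e12, Grin2c 1.28% at p8 and 18.2% at e12, and Grin2a 10.4% at p8 and 1.02% at e12. The shares of Grin2a rest on a fold change without a p-value, and the p8 share of Grin2c on a level near the lowest solved at its base mean. The brachial levels of the regional comparisons at p8 gave 78.9% for Grin2d, 4.53% for Grin2b, 7.34% for Grin2c and 9.23% for Grin2a. With the longest transcript as the length, the share of Grin1 was 19.5% at p8 and 30.0% at e12, and that of Grin3a was 43.9% at p8 and 7.90% at e12. Grin1 then stood before Grin2d (28.6%) and Grin3b (15.5%) at e12, and at p8 before Grin3b (11.2%), so the order of these genes depends on the length used. Grin3a was the highest at p8 with either length. These shares come from group means and carry no error over samples.

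**Figure D2:**
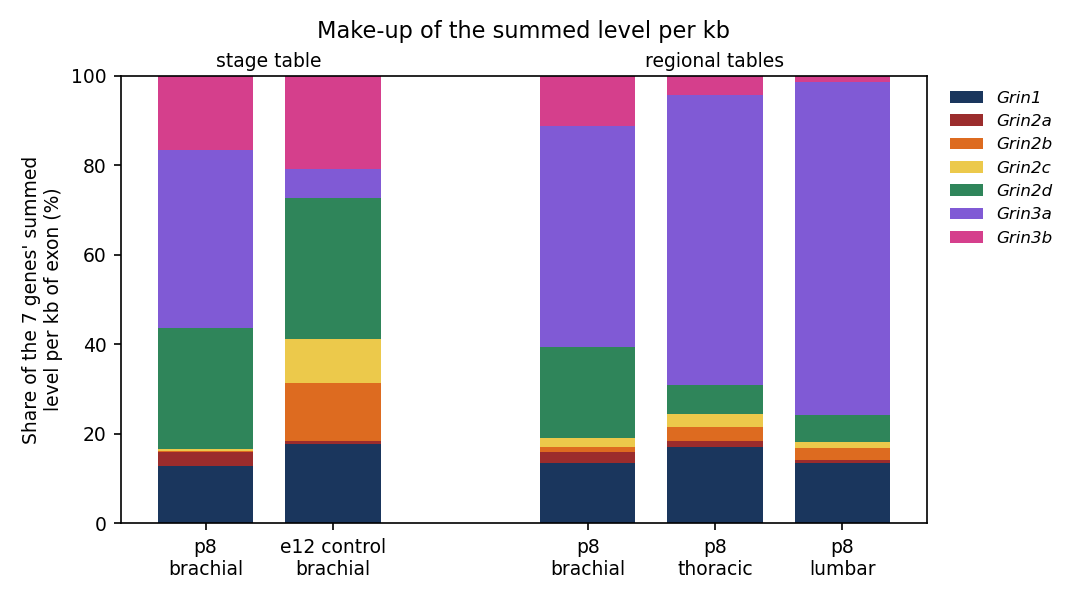
Share of each gene in the summed level per kb of exon of the 7 NMDA receptor genes, in percent. The left pair comes from the stage table, p8 beside e12 control, and the right 3 bars from the regional tables at p8, which were normalised separately. Grin3a takes 39.8% at p8 and 6.50% at e12 in the stage table, and between 49.3% and 74.4% in the 3 regions.

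The 3 regional tables asked whether MNs at one level of the cord differ from those at the other 2 levels at p8. No member was called in any of them at an adjusted p under 0.05, where 0.261% of genes were called in the brachial, 0.011% in the thoracic and 0.0219% in the lumbar comparison. The 3 tables use the same 9 samples and so are not independent of each other. The smallest adjusted p of a member was 0.950, for Grin2b in the brachial comparison. In the thoracic table the fold changes of all genes with a base mean of 10 or more had a median of -0.14, and taking this off changed no call and no sign of a member. DESeq2 gave no p-value for Grin2a in the brachial and thoracic tables.

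Grin1 stood at 20.0 normalised counts in brachial, 44.0 in thoracic and 24.5 in lumbar MNs. Its log2 fold changes over the other regions were -0.85 (-3.31 to 1.62) in brachial, 0.88 (-1.04 to 2.79) in thoracic and -0.46 (-2.72 to 1.80) in lumbar MNs. Each interval spans 0 and reaches past 1 on the log2 scale on both sides of it.

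Grin2b stood at 4.46 in brachial, 21.3 in thoracic and 12.3 in lumbar MNs. The stage table gave Grin2b 1.33 for the p8 brachial samples, and its share per kb was 0.187% there against 1.18% in the brachial level of the regional table, so its low level at p8 is known only roughly. Its brachial log2 fold change of -2.11 (-4.75 to 0.54) was the largest in size among members in that table. Grin2c stood at 1.46, 3.95 and 1.40 normalised counts in the same order of regions, which is a few reads a sample. Grin2d ran the other way, at 20.8 in brachial, 11.3 in thoracic and 7.47 in lumbar MNs, with a brachial log2 fold change of 1.21 (-1.29 to 3.71). Grin2a stood at 6.56 in brachial, 5.93 in thoracic and 2.30 in lumbar MNs, and its lumbar log2 fold change was -1.57 (-3.87 to 0.73). Each of these intervals spans 0.

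Grin3a had the highest level per kb of the members in every region. It stood at 92.3 normalised counts in brachial, 213 in thoracic and 172 in lumbar MNs. Its share of the summed level per kb was 49.3% in brachial, 65.0% in thoracic and 74.4% in lumbar MNs. Its brachial log2 fold change was -1.11 (-3.28 to 1.05), and its thoracic and lumbar intervals spanned 0 as well. Grin3b stood at 5.65 in brachial, 3.72 in thoracic and 0.840 in lumbar MNs. The lumbar value was the only one of all members with an unadjusted p under 0.05, at a log2 fold change of -2.57 (-4.82 to -0.32, unadjusted p = 0.0253 and adjusted p = 0.9998 by DESeq2's model), where 2.88% of all genes had an unadjusted p under 0.05, and it did not pass after adjustment.

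No cholinergic or mature neuron marker was called at an adjusted p under 0.05 in any region. The cholinergic MN markers summed to 237 normalised counts in brachial, 458 in thoracic and 174 in lumbar MNs, and Chat had a lumbar log2 fold change of -2.19 (-4.44 to 0.06). Mature neuron markers summed to 42588 in brachial, 15143 in thoracic and 49431 in lumbar MNs, but this sum rested on Nefh and Nefl, neurofilament genes that held 89.4% of it at p8 in the stage table. Without these, chosen after their values were seen, it was 4675 in brachial, 4859 in thoracic and 4786 in lumbar MNs, and the median log2 fold changes of the whole list were -0.14, 0.26 and -0.14 in that order. Oligodendrocyte markers summed to 8462280 in brachial, 6630450 in thoracic and 8479460 in lumbar MNs. In that order they took 42.7%, 42.3% and 45.5% of all summed levels, against 0.00120%, 0.00292% and 0.000936% for the cholinergic MN markers. The part of these markers in the regional values of the members was not tested.

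**Figure D3:**
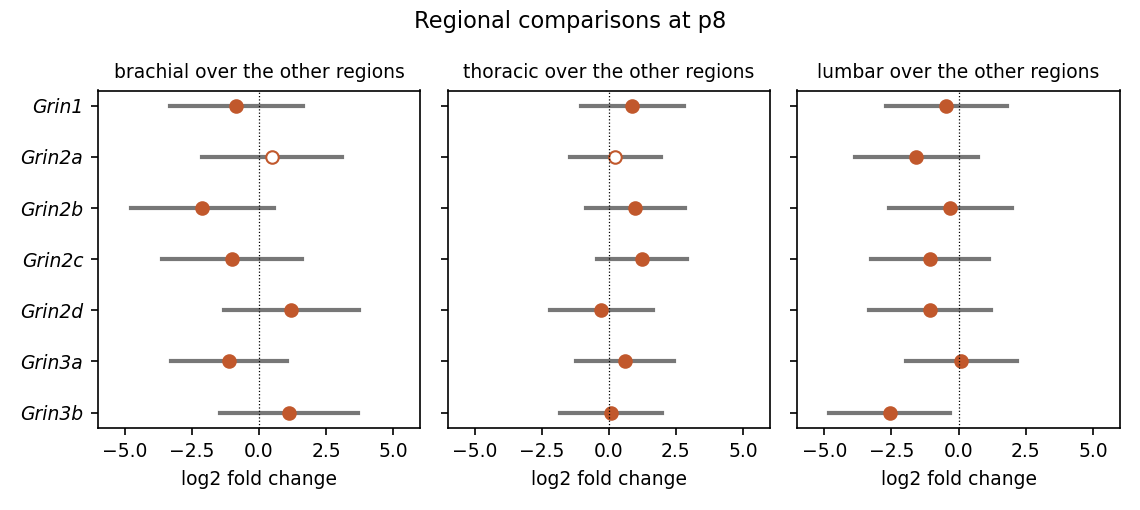
Log2 fold change of each NMDA receptor subunit gene at p8, for each region over the other 2, with its 95% interval. Open points have no p-value. All intervals but that of Grin3b in the lumbar comparison, -4.82 to -0.32, cross 0.

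In Hoxc8 MNΔearly brachial MNs at e12, no member differed from controls at a p under 0.05, a rule that called 0.871% of the 19634 transcripts tested (0.0357% at an adjusted p under 0.05). The table gives control over mutant, so a positive value is lower in the mutant. Fold changes ran from -0.04 for Grin1 to 0.09 for Grin3b on the log2 scale, with unadjusted p-values from 0.300 to 0.935 and an adjusted p of 0.99985 for each. For Grin3b the value was 0.09 (-0.08 to 0.25), and for Grin2b 0.02 (-0.14 to 0.18).

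These values carry little information on size. The largest standard error in the mutant table is 0.0835, against 2.39 in the stage table, a ceiling such as a prior that draws fold changes to 0 would set. Hoxc8 itself, the gene removed in these embryos, had a log2 fold change of control over mutant of only 0.10 (-0.06 to 0.26, adjusted p = 0.99985) at a base mean of 19301, and its deleted part cannot be separated in a value per transcript. The paper, in contrast, counts Hoxc8 among the transcripts lowered in the mutant. Its immunostaining found no Hoxc8 protein in mutant MNs. So the absence of a call does not show that the members were alike in mutant and control MNs.

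The mutant table held few reads for genes with several listed transcripts. Of genes with 1 listed transcript and a level of at least 100 in the e12 samples of the stage table, 0.306% had no reads in the mutant table, against 16.1% of genes with 2 or more. The median ratio of the mutant table's base mean to that e12 level was 0.00876 for genes with 2 or more transcripts and 1.42 for genes with 1. Both transcripts of Grin3a were at 0 there, although the gene stood at 185 normalised counts at e12 in the stage table. The best of the 3 transcripts of Grin1 had a base mean of 39.7, which is 0.0989 of its e12 level in the stage table, while for the 5 members with 1 transcript this ratio ran from 1.20 for Grin2a to 1.86 for Grin2d. Grin3a could therefore not be compared between mutant and control MNs.

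Genes that act with the receptor were set beside its subunits in the stage comparison. Counts are given as higher at p8 and then higher at e12, at an adjusted p under 0.05. The 24 genes of the postsynaptic scaffold, which anchors NMDA receptors, had 1 and 17 calls, with a median log2 fold change of e12 over p8 of 2.67. Shank1, a scaffold organiser, stood at 115 normalised counts at p8 and 8454 at e12, and Dlg4, which encodes PSD-95, stood at 58.6 at p8 and 5463 at e12. Dlgap4, whose protein binds PSD-95, stood at 907 at p8 and 5217 at e12. The 1 gene called higher at p8 was Dlg1, the gene of SAP97, named after its value was seen, with 1675 normalised counts at p8 and 379 at e12.

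The other ionotropic receptors ran the same way as most NMDA receptor genes. The 9 AMPA and kainate receptor genes had 0 and 6 calls, with a median log2 fold change of 1.81. The kainate receptor genes Grik3 and Grik5 stood at 174 and 391 normalised counts at p8, and at 7905 and 5104 at e12. Gria2, whose edited subunit makes AMPA receptors impermeable to calcium, stood at 1242 at p8 and 3779 at e12 and did not pass the test. Of the 8 metabotropic glutamate receptor genes, 0 and 5 were called, and Grm5, which is linked to NMDA receptors through the scaffold, stood at 46.4 at p8 and 220 at e12. Grid1, a delta receptor gene, stood at 34.0 at p8 and 444 at e12.

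Enzymes that act on the receptor split in direction. Of 19 kinase, phosphatase and calmodulin genes, 5 were called higher at p8 and 9 at e12, with a median of -0.06. Fyn, a kinase of GluN2B, stood at 15685 at p8 and 3291 at e12. Calm3, a gene of calmodulin, which binds GluN1, stood at 10503 at p8 and 9883 at e12 and did not pass the test.

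Genes for the supply and removal of glycine and D-serine had the lowest median of these lists, at -2.03, with 6 of 11 called higher at p8 and 1 at e12. The serine synthesis genes Psat1 and Phgdh stood at 9643 and 2569 normalised counts at p8, and at 640 and 210 at e12. Slc6a5, the neuronal glycine transporter and also an inhibitory interneuron marker, stood at 0.601 at p8 and 1148 at e12. Of 9 genes of glutamate release and uptake, 1 was called higher at p8 and 5 at e12. Slc1a2, the main glial glutamate transporter gene, stood at 514 at p8 and 5604 at e12 without a p-value, Glul, the glutamine synthetase gene, at 1280 at p8 and 1788 at e12, and Slc1a1, a neuronal transporter gene, at 2754 at p8 and 483 at e12. Relative to the mature neuron median, the calls higher at p8 and then at e12 became 10 and 6 for the scaffold list, 6 and 1 for AMPA and kainate receptors, 3 and 3 for metabotropic receptors, 14 and 3 for the kinase list, 5 and 1 for glutamate release and uptake and 8 and 1 for the co-agonist list. Over all 18787 genes tested, the calls on this scale were 13317 and 726 in the same order. These counts therefore describe the scale as well as the lists. No list had a call at an adjusted p under 0.05 in a regional or the mutant table. At a p under 0.05, the rule of the mutant table, 1 member of these 7 lists was called, Slc1a1, named after its value was seen, with a log2 fold change of control over mutant of -0.15 (-0.29 to -0.00069, adjusted p = 0.99985), which is higher in the mutant.

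**Figure D4:**
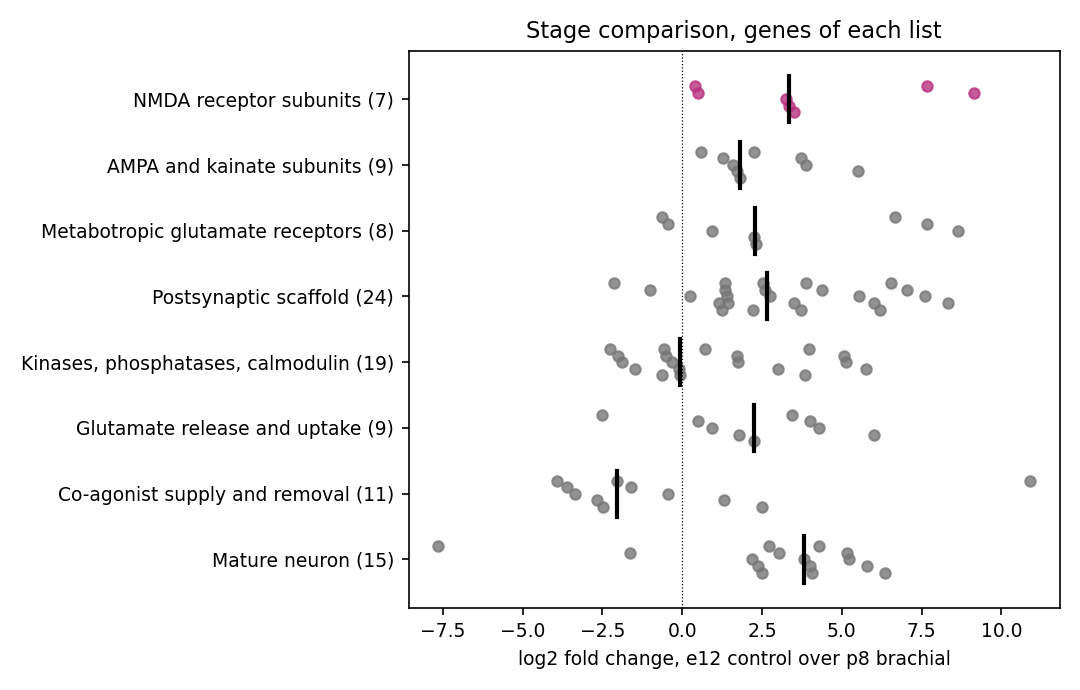
Log2 fold change of e12 control over p8 brachial MNs for the genes of each list (number of genes in brackets), 1 point a gene, with the list's median as a black bar. Positive values are lower at p8 on the authors' scaling of the libraries. The NMDA receptor median is 3.35, near the 3.81 of the mature neuron list, and the co-agonist list is centred at -2.03.

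The genes with the pattern most like that of Grin1 were found by the Euclidean distance over its log2 fold changes in the stage and the 3 regional tables, among the 13736 genes whose base mean reached 10 in these tables. They were Sorcs3 at a distance of 0.0878, Slc27a3 at 0.174, Pnmal1 at 0.243, Chga at 0.282 and Dpp6 at 0.285, against a median distance of 4.18 over all genes. Of the members with enough reads for this measure, Grin2d ranked 2213, Grin3a 3896 and Grin2b 10278 by likeness to Grin1. The 4 fold changes share samples, so the distance is a description of these tables.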

How the data were processed

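RNA of cells sorted as spinal MNs was measured by RNA-Seq in 18 samples, grouped by stage, region and genotype as labelled. Per the methods and labels, the authors aligned unique single-end reads to GRCm38 (mm10) with a program printed as HISET2 (HISAT in the submitters' processing notes), obtained counts per feature by featureCounts and ran DESeq2 on Galaxy. Versions, annotation release, strand setting and low-count filter are not given in the sources used here. The authors deposited 5 tables, each a comparison they made with DESeq2 (e12 over p8, control over mutant, each region over the other 2), and no value per sample was used, since these tables hold none. The depth per sample is therefore unknown, and no model was refitted. Base means, as deposited by the authors, are a signal: size-factor-scaled counts averaged over samples. The log2 fold changes and standard errors are as deposited by the authors. The Wald score deposited by the authors is their ratio. Each p-value is the authors' own, from DESeq2's 2-sided Wald test in a model fitted across all genes.

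From these, Benjamini-Hochberg adjustment was applied to all p-values of a table, and calls were made at an adjusted p under 0.05, or a p under 0.05 in the mutant table. Intervals of 95% used the deposited standard errors and the normal distribution. The largest standard errors (2.39, 1.35, 0.978, 1.19 and 0.0835 in the stage, brachial, thoracic, lumbar and mutant tables) point to shrunken fold changes, so levels solved from them are drawn together too. Stage levels were solved with weights of 6 e12 and 3 p8 samples, since genes with a single read show 6 samples at e12, and regional levels with 3 and 6. The 3 regional levels summed to 89.0 to 102% of 3 base means. Replicates are pools of cords where the methods state it, which they do not for the mutant experiment, and p-values measure the spread between replicates. Symbols came from RefSeq (GRCm38.p6), exon lengths from GENCODE vM21. The adjustment was tested on simulated data. Scripts ran in Python 3.11.15 with scipy 1.17.1, pandas 2.3.3, numpy 2.4.6 and matplotlib 3.10.9.

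The members and all 7 gene lists and 9 marker lists were chosen with earlier results of these data known. Named were all 7 members, each list's 3 genes of highest base mean and the 5 genes nearest to Grin1, and not every gene so chosen is reported here. Marker lists serve to describe the samples, and in the text only some of their genes are named. Alternatives were the deposited adjustment, a base mean of at least 10, fold changes re-centred on all genes or on the neuron list, a fold over 4, other weights, least squares and another gene length.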

Additional observations from a re-analysis of the deposited data

How the results depend on the processing

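No paired analysis was possible because the deposited tables hold no values per sample, and for the same reason no replicate could be left out. Of the alternatives run on the members, re-centring the stage comparison on the mature neuron median changed calls: 2 members were then lower at p8 and 1 higher, against 5 and 0. Grin1 (-0.31), Grin2d (-0.57) and Grin3b (-0.46) then changed sign without a call, and Grin3a (-3.40) was called higher at p8. This setting also left 13317 genes called higher at p8 and 726 higher at e12 in the whole table, against 4315 and 4663, and a fold over 4 left 2856 and 3395. With the adjusted p as deposited, a base mean of at least 10, re-centring on all genes (a shift of -0.14 in the thoracic table and under 0.1 in size in the other tables) or a fold over 4, 5 members stayed lower at p8, and in the regional and mutant tables none was called under the settings run there. Counts of brachial calls lower in brachial MNs were 24 with the deposited adjustment and 26 with the base mean filter, against 15. Mutant calls at an adjusted p were 2 lower and 5 higher in the mutant, against 89 and 82 at a p under 0.05.

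With weights of 3 and 3 samples, e12 levels became 513 for Grin1, 993 for Grin2b, 156 for Grin2c, 617 for Grin2d and 203 for Grin3b, beyond their intervals. What limits the report is that Grin2b and Grin2c rest on few reads at p8, the width of the regional intervals, and the shrinkage of the mutant table.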
